A study of Mus musculus with 31 samples.

Results

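Total RNA was measured in whole liver of Ire1 ko mice, which lack a sensor of protein folding in the endoplasmic reticulum (ER), and of WT littermates, without any drug. The comparison took all untreated arrays of the Ire1 experiment by their labels, 7 of the 31 arrays in the series. The 3 Ire1 ko arrays came from fed, untreated male mice aged 14 weeks, of a strain labelled as mixed. The 4 WT arrays came from fed, untreated male mice aged 14 weeks, labelled as littermates of the Ire1 ko and as C57BL/6. If both strain labels hold, strain background and genotype cannot be told apart. The labels name the arrays of a group biological replicates, and neither the deleted part of the gene nor the way it was deleted is given there. Other groups of the series were used only where stated, namely Ire1 ko and WT mice of the same age given tunicamycin, an inhibitor of N-glycosylation that provokes ER stress, at 2 mg/kg and sampled 6 h later (4 arrays each) and untreated Xbp1 ko mice and their own WT littermates at 14 weeks (4 arrays each).

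IRE1α, encoded by Ern1, sits in the ER membrane and carries a kinase and an RNase domain. On ER stress its RNase cuts the Xbp1 mRNA, and the spliced mRNA encodes XBP1s, a transcription factor for genes of protein entry into the ER, folding, glycosylation, degradation and export. The same RNase can also cut other mRNAs at the ER, a process called regulated IRE1-dependent decay. Hepatocytes make most plasma proteins and so depend on a large ER. The comparison asked which liver mRNAs differ with loss of IRE1 when no ER stress has been imposed.

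The 2 genes of the branch itself were not called as changed. Ern1 had intensities of 150, 153 and 148 on the Ire1 ko arrays, against 136, 121, 203 and 137 on the WT arrays, so the groups overlapped (log2 difference 0.04 ± 0.19 SE, limma adjusted p = 0.957). Its 4 other probe sets averaged 4.33 to 7.67 in Ire1 ko livers and 4 to 8 in WT livers, near the bottom of the intensity scale, where the median probe set lies at 5. Because the deleted part of Ern1 was not known here, these probe sets do not check the genotype. Xbp1 had 784, 715 and 765 in Ire1 ko livers and 904, 880, 1151 and 799 in WT livers. Every Ire1 ko array was below every WT array on this Xbp1 probe set, the brightest, but the difference of -0.29 ± 0.11 did not pass the test (limma adjusted p = 0.372). The groups overlapped on its other bright probe sets, with 720, 609 and 812 in Ire1 ko livers against 898, 754, 981 and 740 in WT livers on one, and 327, 291 and 283 in Ire1 ko livers against 382, 321, 402 and 320 in WT livers on the other. The array does not tell spliced from unspliced Xbp1 mRNA. None of the 100 tested genes nearest to Ern1 on chromosome 11 was called. As 0.943% of all tested genes were called, this count says little about the region.

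Of 15172 genes tested, 143 had a limma adjusted p below 0.05 and are named called genes here, and 131 of them were lower in Ire1 ko livers while 12 were higher. Differences are given on the log2 scale of intensity, Ire1 ko minus WT, with a standard error where one is printed. These are 0.943% of the tested genes in either direction, 0.863% lower and 0.0791% higher. An unadjusted p below 0.05 was reached by 1441 genes, 964 lower and 477 higher. The change was at least 2-fold for 40 of the lower and 3 of the higher genes. No array of one group overlapped the other group for 130 of the 131 lower genes and for all 12 higher genes, where 3.64% of tested genes were separated downward and 1.34% upward (4.98% in either direction). Tmem39a was the overlapping gene, with 23, 16 and 18 in Ire1 ko livers and 38, 22, 43 and 42 in WT livers (-0.90), a call lost without any array but WT replicate 2 or Ire1 ko replicate 1 (adjusted p 0.115 to 0.186). Of the 143 calls, 69 held on leaving out each of the 7 arrays in turn. With all arrays brought to 1 median among the brighter probe sets, the 136 calls were 106 lower and 30 higher, and with the 7 untreated arrays fitted alone the 78 calls were 55 lower and 23 higher, 44 of them among the 143. That fit kept 33 of the 93 called genes named below, Sec61b, Ostc, Gmppb and Bcl6 among them, and lost the calls of Tmed3, Dnajb9, Hyou1, Cish, Onecut1 and Rgs16, for example. Leaving out Ire1 ko replicate 3 reduced the count to 95 calls, 81 of them lower, leaving out WT replicate 4 raised the higher calls to 24, and leaving out Ire1 ko replicate 2 lowered them to 7.

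Cell composition was checked with 11 marker lists, and no gene of any of these lists was called by limma. The share called over all tested genes was 0.943%, so lists this short would often hold none. At an unadjusted p below 0.05, 1 endothelial marker was lower and 1 adipose marker higher. The summed intensity of the Kupffer cell markers was 3218, 1216 and 1260 on the Ire1 ko arrays and 1749, 2197, 2124 and 1289 on the WT arrays, so Ire1 ko replicate 1 stood highest and replicates 2 and 3 lowest. The hepatocyte markers summed to 36124, 42735 and 39520 in Ire1 ko livers and 41277, 38386, 38284 and 38421 in WT livers. The endothelial sums were 776, 548 and 619 in Ire1 ko livers and 845, 795, 803 and 667 in WT livers. The acute-phase gene Saa2 varied over 3028, 259 and 698 in Ire1 ko livers and 2871, 2600, 1065 and 238 in WT livers, a spread within each group as wide as that between them. In whole tissue, fewer cells of a type and less RNA per cell cannot be told apart. The part of cell composition in the results below was not tested.

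**Figure D1:**
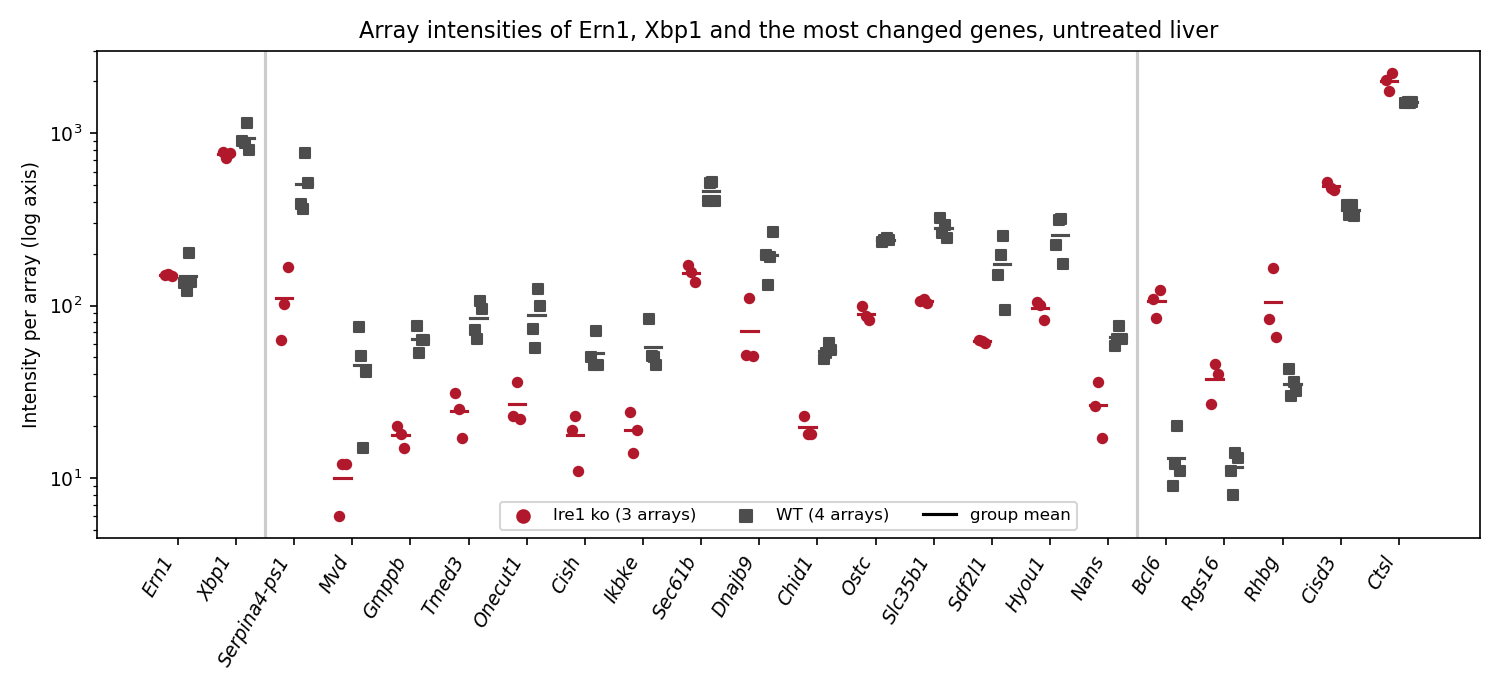
Intensity on each untreated array (log axis) for Ern1, Xbp1 and 20 called genes. These were taken from called genes whose arrays do not overlap between the groups and with a group mean of at least 16. They are the 15 with the lowest log2 difference and the 5 that were higher. Circles are the 3 Ire1 ko arrays, squares the 4 WT arrays, and bars the group means. Ern1 overlaps between the groups. The 20 called genes run from Serpina4-ps1 (-2.25) to Bcl6 (3.07), and their separation was set by the choice of genes.

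Genes for moving new proteins into the ER were lower in Ire1 ko livers, and the translocon itself led them. Of 11 tested genes of the Sec61 translocon and the translocon-associated TRAP complex, 7 fell and none rose, against 0.863% of all tested genes called lower (2.22% of the 5733 genes with a group mean of at least 16, of which 0.0872% were called higher). The median log2 difference of the list was -0.69, against -0.03 over all tested genes. Sec61b, the β subunit of the protein-conducting channel, had 173, 156 and 137 in Ire1 ko livers, against 406, 516, 524 and 407 in WT livers. The groups were far apart, with the Ire1 ko mean 2.98-fold lower (-1.57 ± 0.13, limma adjusted p = 8.36e-06). Sec61a1, the pore subunit, had 506, 465 and 430 in Ire1 ko livers, against 882, 963, 1069 and 906 in WT livers (-1.03 ± 0.11, adjusted p = 9.2e-05). Tram1, a membrane protein beside the channel, had 401, 341 and 351 in Ire1 ko livers, against 672, 690, 819 and 650 in WT livers (-0.96). All 4 TRAP subunits fell, Ssr1 by 0.90, Ssr4 by 0.82, Ssr2 by 0.69 and Ssr3 by 0.45 on the log2 scale. The call for Ssr3 was lost on leaving out any array but WT replicate 4 (adjusted p 0.0767 to 0.181). Not every translocon gene was lower. Sec62, which serves post-translational import, had 663, 620 and 630 in Ire1 ko livers and 581, 612, 608 and 637 in WT livers, and its partner Sec63 differed by -0.31 (adjusted p = 0.577).

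The signal recognition particle brings ribosomes to the ER membrane, and the signal peptidase cuts the signal sequence from the arriving chain. Of 10 tested genes of these machines, 7 fell, against 0.863% of all tested genes called lower, and the list median was -0.55. The signal peptidase subunit Spcs2 had 181, 158 and 146 in Ire1 ko livers, against 358, 353, 410 and 361 in WT livers, a 2.29-fold lower mean (-1.20 ± 0.10, limma adjusted p = 6.35e-06). Its catalytic subunit Sec11c had 29, 28 and 28 in Ire1 ko livers, against 52, 72, 77 and 68 in WT livers (-1.23). A further subunit, Spcs3, had 123, 144 and 108 in Ire1 ko livers, against 208, 235, 264 and 278 in WT livers (-0.98). The receptor subunit Srpr, which docks the particle at the membrane, fell by 0.52. The particle subunits Srp9, Srp54a and Srp72 fell by 0.55, 0.54 and 0.45. Their calls were lost on leaving out WT replicate 3 or Ire1 ko replicate 3, and for 1 or more of them also each other array (adjusted p 0.0502 to 0.176), so 4 of 10 members were called without either of the first 2. Srp54a has a near copy, Srp54c, that was called as well (-0.57) and lost that call without any array but WT replicate 1 (0.0511 to 0.105). The brightest members not called were Spcs1 (-0.07) and Srp14 (-0.15).

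Genes for attaching N-glycans were lower, and few genes that build the glycan passed the test. The oligosaccharyltransferase is the complex that transfers the finished glycan to nascent chains. Of its 12 tested genes, 8 fell, against 0.863% of all tested genes called lower, and all 12 had a difference below 0 (median -0.56). Ostc, a subunit of the translocon-bound form, had 100, 87 and 82 in Ire1 ko livers, against 234, 239, 248 and 241 in WT livers, with no overlap and a 2.68-fold lower mean (-1.43 ± 0.11, limma adjusted p = 5.25e-06). Ddost had 130, 122 and 127 in Ire1 ko livers, against 272, 251, 288 and 246 in WT livers (-1.06). Stt3a, the catalytic subunit of the translocon-bound form, had 112, 74 and 103 in Ire1 ko livers, against 166, 192, 193 and 144 in WT livers (-0.86 ± 0.15, adjusted p = 0.00662). The other catalytic subunit, Stt3b, had 252, 200 and 181 in Ire1 ko livers and 294, 239, 313 and 258 in WT livers, which overlapped and did not pass (-0.39, adjusted p = 0.214). Magt1 fell by 0.91, Krtcap2 by 0.78, Rpn1 by 0.58, Rpn2 by 0.53 and Dad1 by 0.49. The call for Rpn2 was lost without Ire1 ko replicate 2 (adjusted p = 0.0739), that for Rpn1 without any array but WT replicate 4 (0.0656 to 0.181), and that for Dad1 without any array but Ire1 ko replicate 1 (0.0675 to 0.156). Without Ire1 ko replicate 2, 5 of 12 members were called. The brightest subunit not called, Ost4, differed by -0.02.

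The genes that assemble the dolichol-linked glycan had a list median of -0.10, near that of all genes. Of 20 tested, 3 fell, against 0.863% of all tested genes called lower. These were Alg2, a mannosyltransferase (21, 20 and 21 in Ire1 ko livers, against 53, 39, 48 and 61 in WT livers, -1.26), Dpagt1, which starts the chain (-0.91), and Dhdds, a subunit of the enzyme that makes the dolichol precursor (-0.67). The brightest members not called were Dpm1 (-0.05) and Alg5 (-0.14). In the list of sugar nucleotide supply, 6 of 14 tested genes fell (median -0.59), against the same share of 0.863%. Gmppb, which makes GDP-mannose, had 20, 18 and 15 in Ire1 ko livers, against 76, 53, 63 and 63 in WT livers, a 3.61-fold lower mean (-1.85 ± 0.21, adjusted p = 0.000158). Its partner subunit Gmppa had 15, 13 and 17 in Ire1 ko livers, against 31, 28, 38 and 37 in WT livers (-1.16). Slc35b1, a nucleotide carrier of the ER membrane, had 106, 109 and 104 in Ire1 ko livers, against 324, 263, 293 and 246 in WT livers (-1.40 ± 0.09, adjusted p = 9.32e-07, the smallest of the genes named here). The acetyl-CoA carrier Slc33a1 (-1.33), the folding sensor Uggt1 (-1.12) and Pgm3, of the UDP-GlcNAc route (-1.08), fell as well. Of the 6, Gmppb, Gmppa and Pgm3 act in making sugar nucleotides, whereas Slc35b1 and Slc33a1 are carriers and Uggt1 acts on folding glycoproteins in the calnexin cycle. The call for Pgm3 was lost without Ire1 ko replicate 3 (adjusted p = 0.0571). The brightest members not called were Gnpnat1 (0.07) and Slc35d1 (0.08). Outside the lists, Nans, which makes the sialic acid precursor, had 26, 36 and 17 in Ire1 ko livers, against 58, 64, 76 and 64 in WT livers (-1.37).

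ER chaperones and cochaperones were lower, with the most abundant ones short of the threshold. Of 19 tested genes of the ER Hsp70 system, 8 fell, against 0.863% of all tested genes called lower. All 19 differences were below 0 (median -0.53). Dnajb9, an Hsp40 cochaperone also known as ERdj4, had 52, 111 and 51 in Ire1 ko livers, against 196, 131, 192 and 266 in WT livers (-1.52 ± 0.24, limma adjusted p = 0.00357). Ire1 ko replicate 2 was the highest of its group, yet below each WT array. Sdf2l1, a partner of the ER Hsp40 proteins, had 63, 62 and 61 in Ire1 ko livers, against 151, 196, 254 and 94 in WT livers (-1.40). Hyou1, a large Hsp70-like protein that releases nucleotide from BiP, had 105, 101 and 83 in Ire1 ko livers, against 225, 312, 318 and 175 in WT livers (-1.38 ± 0.19, adjusted p = 0.000711). Hspa13 (-1.36), the secreted ER factor Manf (-1.15) and the cochaperone Dnajb11 (-0.83) also fell. So did Dnajc3 (-0.53), an Hsp40 known as p58IPK, and Sil1 (-0.47), a nucleotide exchange factor of BiP, and these calls were lost without Ire1 ko replicate 3 for Dnajc3 (0.0776) and without WT replicate 3 or Ire1 ko replicate 2 or 3 for Sil1 (0.0515 to 0.0837). Among the most abundant chaperones, Hspa5, which encodes BiP itself and was singled out after its values were seen, had 763, 823 and 869 in Ire1 ko livers and 872, 880, 1195 and 901 in WT livers (-0.22 ± 0.10, adjusted p = 0.482). Hsp90b1, encoding GRP94, had 1011, 880 and 937 in Ire1 ko livers and 1008, 1161, 1183 and 765 in WT livers, with overlapping groups (-0.11, adjusted p = 0.875). The prolyl isomerase Ppib differed by -0.48 (adjusted p = 0.102).

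Some genes of disulfide formation and of the lectin cycle fell. Of 17 tested protein disulfide isomerases and oxidases, 4 fell (median -0.25), against 0.863% of all tested genes called lower. P4hb, an abundant isomerase and also a subunit of the lipid transfer protein that starts lipoprotein assembly, had 1170, 1019 and 1007 in Ire1 ko livers, against 1979, 2133, 2195 and 1927 in WT livers. The groups were well apart, with a 1.93-fold lower mean (-0.95 ± 0.08, limma adjusted p = 1.57e-05). The oxidase Ero1b (-0.91) and the isomerases Txndc5 (-0.84) and Pdia6 (-0.53) fell, and the call for Pdia6 was lost without Ire1 ko replicate 2 (adjusted p = 0.0686). Pdia4 (191, 162 and 156 in Ire1 ko livers, against 196, 210, 275 and 139 in WT livers) did not pass. In the calnexin and calreticulin cycle, 3 of 12 tested genes fell, namely the glucosidase Mogs (-0.78), the mannosidase-like Edem1 (-0.75) and the cargo lectin Lman1 (-0.37). Uggt1, which acts in the same cycle, was counted in the sugar nucleotide list. In the calnexin list, calls were lost without Ire1 ko replicate 2 for Mogs (0.0655), without WT replicate 1 or 3 or Ire1 ko replicate 1 or 3 for Edem1 (0.0558 to 0.112), and without any array but WT replicate 4 or Ire1 ko replicate 2 for Lman1 (0.0745 to 0.15). A single member of this list was called without WT replicate 3 or Ire1 ko replicate 1 or 3. The lectin Calr had 1697, 1217 and 1344 in Ire1 ko livers and 1920, 1616, 1663 and 1387 in WT livers (-0.22, adjusted p = 0.586), and Canx differed by -0.22.

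In ER-associated degradation, which returns misfolded proteins to the cytosol, 1 of 22 tested genes fell (list median -0.24). Lower calls made up 0.863% of all tested genes, and 2.22% of those with a group mean of at least 16. The count of 1 thus does not set this list apart. The gene that fell was Selenos, a membrane protein of the export complex. Selenos had 289, 348 and 320 in Ire1 ko livers, against 510, 479, 547 and 525 in WT livers (-0.69 ± 0.08, limma adjusted p = 0.000142). In this list 2 genes were called without WT replicate 2 or 4 or Ire1 ko replicate 1 or 2. Herpud1, a scaffold of the degradation complex, had 719, 1059 and 876 in Ire1 ko livers and 694, 455, 618 and 802 in WT livers (0.47, adjusted p = 0.226), and Derl2 differed by -0.25. Outside the lists, Ufm1, a ubiquitin-like protein modifier, and 2 genes linked to it were called lower. They were picked from the called genes after their values were seen, and the other genes of that system were not counted. Ufm1 had 49, 34 and 46 in Ire1 ko livers, against 68, 68, 71 and 70 in WT livers (-0.70), Cdk5rap3 differed by -0.76 and the conjugating enzyme Ufc1 by -0.43. The calls for Ufc1 without Ire1 ko replicate 2 or 3 (0.0509 to 0.0587) and for Cdk5rap3 without Ire1 ko replicate 2 (0.0545) were lost.

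Genes of export from the ER were called in smaller numbers. Of 16 tested genes of the COPII coat, which forms vesicles at ER exit sites, 3 fell (median -0.23). Lower calls made up 0.863% of all tested genes, and 2.22% of those with a group mean of at least 16. Sec23b, an inner coat subunit, had 131, 151 and 135 in Ire1 ko livers, against 352, 264, 346 and 336 in WT livers (-1.22 ± 0.12, limma adjusted p = 2.63e-05). Sec24d, a cargo-binding subunit, had 100, 76 and 75 in Ire1 ko livers, against 198, 155, 191 and 167 in WT livers (-1.09). Preb, the exchange factor that starts coat assembly, fell by 0.61, a call lost without any array but WT replicate 2 or Ire1 ko replicate 1 (adjusted p 0.0537 to 0.112). Sar1b, the coat GTPase, had 1213, 1371 and 1162 in Ire1 ko livers and 1156, 1164, 1314 and 1155 in WT livers (0.06), and Tfg, of the exit sites, differed by -0.20. Of 16 tested genes of the COPI coat, 1 fell, the subunit Cope (-0.66), and this call was lost without WT replicate 3 or Ire1 ko replicate 1 or 2 (0.0515 to 0.0849). No COPI gene was called without WT replicate 3 or Ire1 ko replicate 2, and 3 were without WT replicate 2. The count of 1 thus does not set the COPI list apart (list median -0.36). The brightest COPI members not called were Copa (-0.43, adjusted p = 0.0596) and Arf4 (-0.42, adjusted p = 0.121).

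Of 24 tested cargo receptors, tethers and KDEL receptors, 6 fell (median -0.21), against 0.863% of all tested genes called lower. Tmed3, a p24 cargo receptor, had 31, 25 and 17 in Ire1 ko livers, against 72, 64, 107 and 95 in WT livers, a 3.47-fold lower mean (-1.81 ± 0.22, limma adjusted p = 0.000221). The fusion protein Bet1 had 27, 25 and 21 in Ire1 ko livers, against 41, 55, 47 and 46 in WT livers (-0.96). The cargo receptor Surf4, which carries lipoproteins among other clients, had 131, 129 and 113 in Ire1 ko livers, against 236, 218, 264 and 196 in WT livers (-0.87). The lectin Lman2 fell by 0.67, the SNARE Sec22b by 0.60 and the p24 protein Tmed10 by 0.46. The call for Sec22b was lost without Ire1 ko replicate 2 or 3 (adjusted p 0.0509 to 0.064) and that for Tmed10 without WT replicate 1 or 3 or Ire1 ko replicate 2 or 3 (0.055 to 0.12). The brightest members not called were Tmed2 (-0.23) and the KDEL receptor Kdelr2 (-0.18). Beyond the lists, and named after their values were seen, the Golgi tether Uso1 had 109, 117 and 91 in Ire1 ko livers, against 198, 193, 190 and 190 in WT livers (-0.87). Golgb1 (-0.83) and Gorasp2 (-0.74), of the Golgi matrix, were called lower too.

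**Figure D2:**
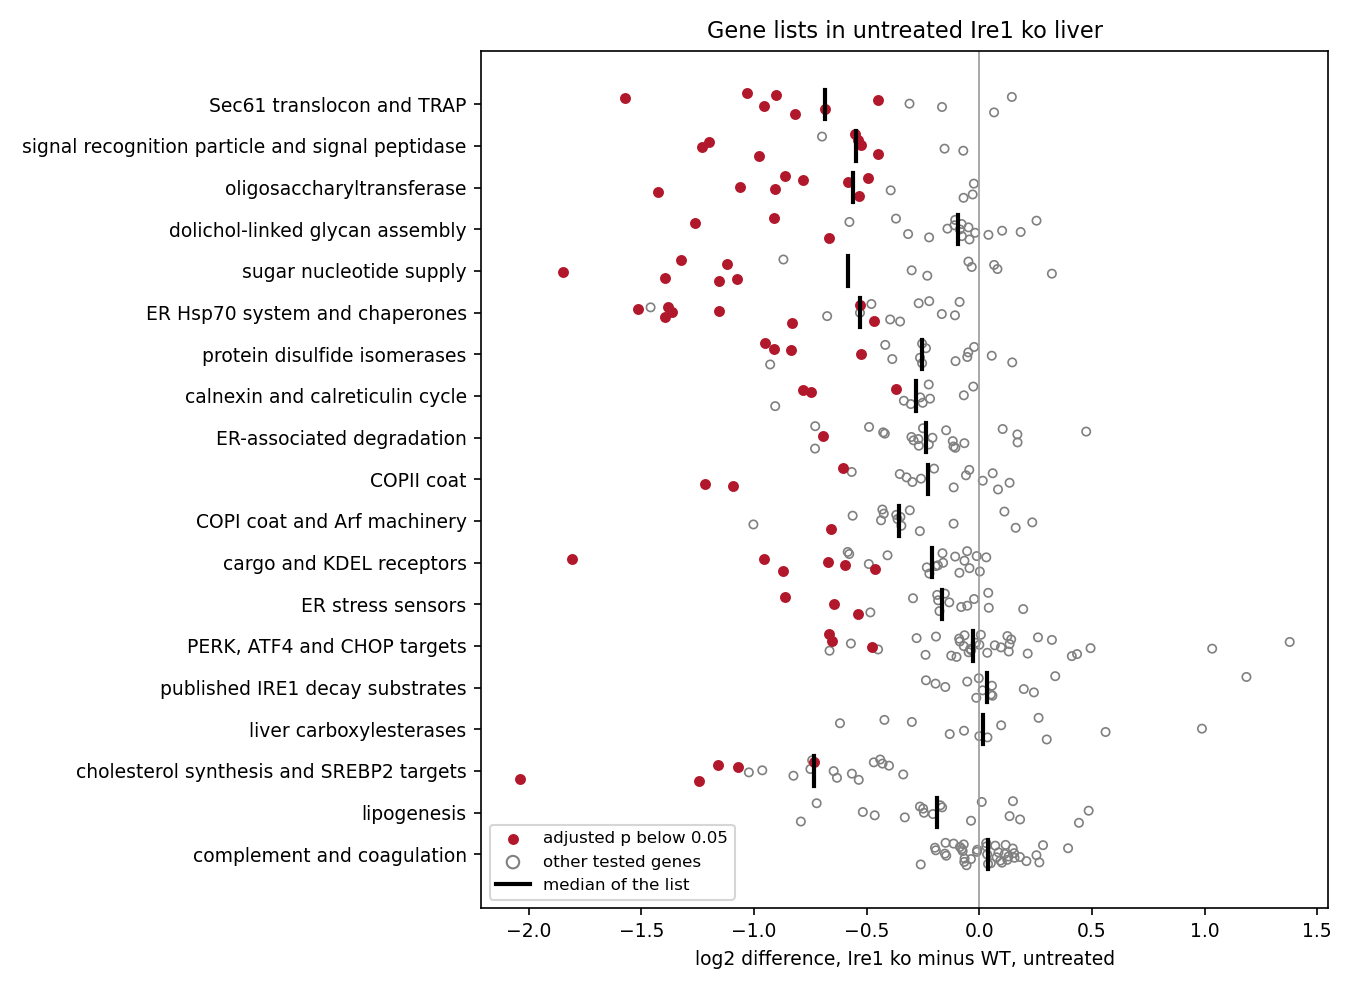
Log2 difference (Ire1 ko minus WT, untreated) of every tested gene in 19 lists, with 1 list per row. Filled points are genes with a limma adjusted p below 0.05, open points the other tested genes, and black bars list medians. The translocon, signal peptidase and oligosaccharyltransferase lists sit left of 0 with medians of -0.69, -0.55 and -0.56, while complement and coagulation, a list of secreted proteins, centre on 0.04.

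Over the 12 secretory lists, 57 of 193 tested genes were called lower and 0 higher (median -0.31), against 0.863% and 0.0791% of all tested genes. The count of lower genes was 44 without Ire1 ko replicate 3 and 56 without WT replicate 2, and 28 with 1 gene higher when the 7 untreated arrays were fitted alone. The lists of secreted plasma proteins held few called genes. Over all tested genes 0.943% were called, so these counts do not set the lists apart. None of 40 tested complement and coagulation genes was called by limma (median 0.04, 2 higher at an unadjusted p below 0.05), nor any of 24 apolipoprotein genes (median 0.02, 1 higher and 1 lower). Of 32 tested plasma carriers and acute phase proteins, 1 was called lower, the cytokine receptor Lifr, and none higher (median 0.03, 2 higher and 1 lower at an unadjusted p below 0.05). Lifr had 508, 486 and 681 in Ire1 ko livers, against 1140, 1133, 911 and 797 in WT livers (-0.83), a call lost without WT replicate 1, 2 or 3 or Ire1 ko replicate 1 or 2 (adjusted p 0.0674 to 0.164). On the single arrays, the translocon list averaged -0.53, -0.64 and -0.65 in the 3 Ire1 ko livers, in log2 units relative to the WT mean, against -0.11 to 0.15 on the WT arrays. In 11 of the 12 secretory lists every Ire1 ko array lay below every WT array. The COPII coat was the exception, with -0.17, -0.30 and -0.44 in Ire1 ko livers and 0.09, -0.19, 0.09 and 0.01 in WT livers. Averaged over all tested genes, the arrays lay at 0.02, -0.04 and -0.09 in Ire1 ko livers and 0.03, -0.05, 0.04 and -0.01 in WT livers.

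**Figure D3:**
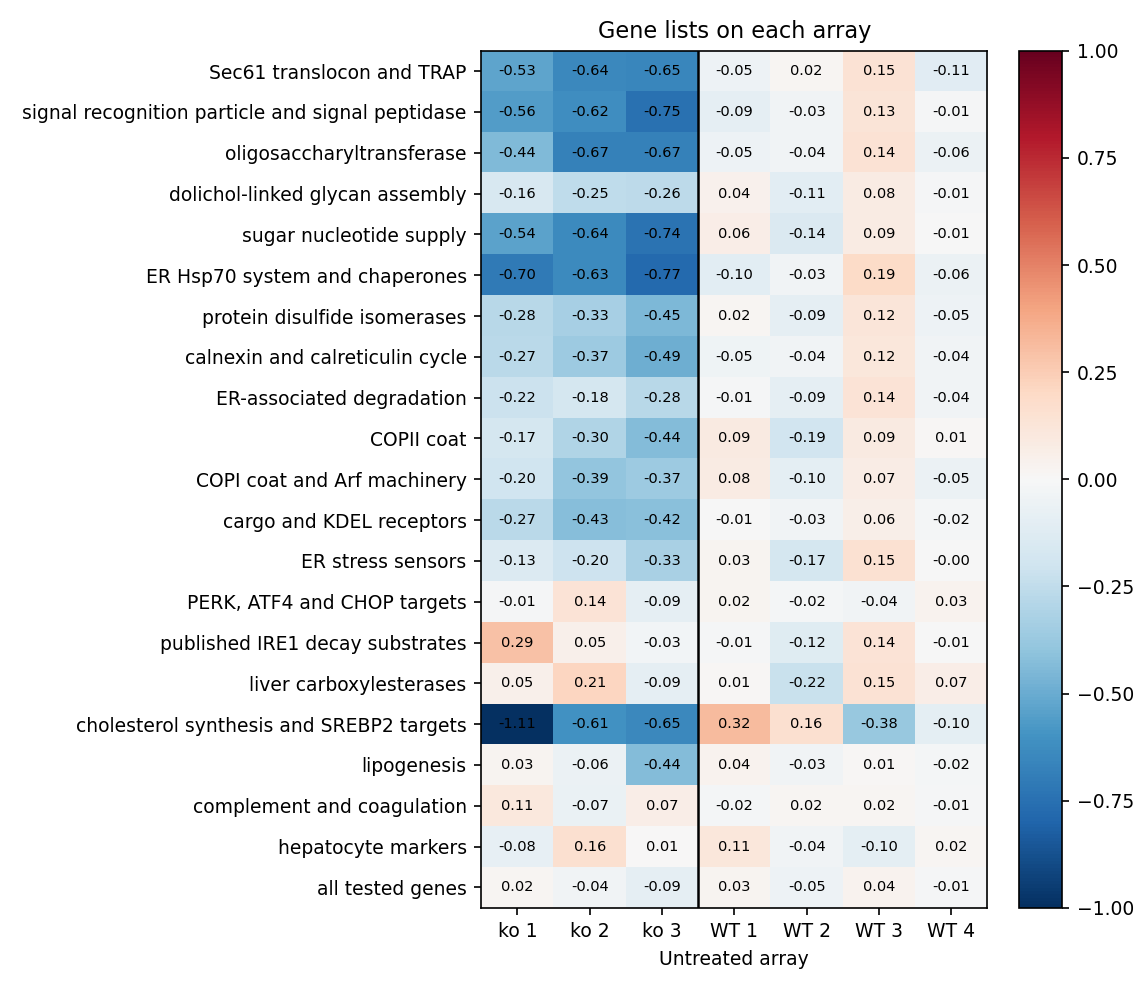
Mean log2 intensity of each list on each untreated array, relative to the mean of the 4 WT arrays (columns: 3 Ire1 ko arrays, then 4 WT arrays; rows: lists). The upper rows are negative on all 3 Ire1 ko arrays, for example -0.70, -0.63 and -0.77 for the ER Hsp70 system, while hepatocyte markers lie at -0.08, 0.16 and 0.01 there.

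The promoters of genes that fell are shown because XBP1 and ATF6, the transcription factors of this response, bind known DNA motifs. RefSeq windows (build GRCm38.p6, 250 bases before to 50 after each start) were searched on both strands for CCACGT, the core read by XBP1, for TGACGTGG, the core of the unfolded protein response element, which contains the reverse complement of CCACGT, for the ER stress element, which is CCAAT, 9 bases of any kind and CCACG, and for its second form, ATTGG, 1 base and CCACG. A window was found for 43 of the 57 secretory genes that fell. The stretches below run 5′ to 3′ in the direction of the gene, end at or before the start site, and have the match each is shown for in capitals. The first 6 are the secretory genes with a CCACGT match before the start that fell most, and the last 3 are all those that hold the ER stress element.
Tmed3 (chr9:89705189-89705293, - strand): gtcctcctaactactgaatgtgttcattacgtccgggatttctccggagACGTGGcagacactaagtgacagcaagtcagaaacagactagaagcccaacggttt
Dnajb9 (chr12:44210121-44210226, - strand): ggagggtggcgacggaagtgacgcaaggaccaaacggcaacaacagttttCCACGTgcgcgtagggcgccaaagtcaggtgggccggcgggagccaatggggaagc
Slc33a1 (chr3:63964802-63964907, - strand): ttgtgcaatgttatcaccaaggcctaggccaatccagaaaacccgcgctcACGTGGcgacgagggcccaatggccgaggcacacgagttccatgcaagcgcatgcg
Sec24d (chr3:123267422-123267495, + strand): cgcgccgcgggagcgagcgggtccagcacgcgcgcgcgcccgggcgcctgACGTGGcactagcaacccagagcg
P4hb (chr11:120573255-120573360, - strand): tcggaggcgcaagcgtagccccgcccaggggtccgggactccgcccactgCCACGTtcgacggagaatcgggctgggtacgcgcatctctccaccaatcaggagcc
Ssr1 (chr13:37994226-37994331, - strand): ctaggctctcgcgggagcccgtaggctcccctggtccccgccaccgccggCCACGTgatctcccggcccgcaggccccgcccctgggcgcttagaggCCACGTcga
Dnajc3 (chr14:118937777-118937895, + strand): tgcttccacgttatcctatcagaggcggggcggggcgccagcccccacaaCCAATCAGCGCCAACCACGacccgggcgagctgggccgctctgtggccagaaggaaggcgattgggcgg
Ero1b (chr13:12565633-12565750, + strand): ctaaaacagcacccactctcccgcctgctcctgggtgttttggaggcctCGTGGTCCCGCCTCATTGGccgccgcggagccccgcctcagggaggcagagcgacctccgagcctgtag
Pdia6 (chr12:17266441-17266559, + strand): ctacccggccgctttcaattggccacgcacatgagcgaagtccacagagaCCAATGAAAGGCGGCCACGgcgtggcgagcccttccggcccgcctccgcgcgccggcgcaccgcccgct
The match began 201 bases before the start in Tmed3, 108 in Dnajb9, 124 in Slc33a1, 24 in Sec24d, 57 in P4hb and 73 in Ssr1, whose stretch holds 2 matches. In Tmed3, Slc33a1 and Sec24d it read ACGTGG, on the other strand, and in Sec24d it was part of TGACGTGG. The ER stress element began 105, 201 and 98 bases before the start in Dnajc3, Ero1b and Pdia6, on the other strand in Ero1b. The Dnajc3 stretch also holds CCACGT, left in lower case near its 5′ end. CCACGT was present in 14 of these 43 genes (32.6%), in 38 of 121 secretory genes with a window that were tested and not called (31.4%), and in 12.2% of all 12052 tested genes with a window. Among genes that fell outside the secretory lists it was present in 19 of 56 (33.9%). The ER stress element was present in 3 of 43 secretory genes that fell (6.98%), in 8 of 121 not called (6.61%) and in 0.158% of all tested genes with a window. TGACGTGG was present in 2 of the 43 (4.65%), in 7 of the 121 (5.79%) and in 0.971% of tested genes with a window, and the second form of the ER stress element in 2 (4.65%), 1 (0.826%) and 0.0747%. Over all 27025 genes of the RefSeq table, 9.4% held CCACGT and 0.137% the ER stress element. A match is a description of the sequence and not a binding site.

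Some genes of the other ER stress sensors and their targets were called lower, though most of these calls did not hold on leaving out single arrays. Of 16 tested genes of the sensor list, 3 fell, against 0.863% of all tested genes called lower. Atf6, the sensor that is cleaved into a transcription factor, had 65, 50 and 49 in Ire1 ko livers, against 83, 83, 87 and 86 in WT livers (-0.64 ± 0.10, limma adjusted p = 0.00301). Its relatives Creb3l2 (-0.86, with intensities of 7 to 8 in Ire1 ko livers and 10 to 16 in WT livers) and Creb3 (-0.54) also fell. The Creb3l2 call was lost without WT replicate 1 or 3 or Ire1 ko replicate 1 or 2 (adjusted p 0.0535 to 0.079), and the Creb3 call without any array but WT replicate 4 or Ire1 ko replicate 1 (0.0867 to 0.162). A single member was called without WT replicate 1 or 3 or Ire1 ko replicate 2. Eif2ak3, encoding the kinase PERK, had 11, 11 and 9 in Ire1 ko livers and 14, 12, 15 and 17 in WT livers (-0.48, adjusted p = 0.245). Among 36 tested targets of the PERK, ATF4 and CHOP branch, 3 were lower, none was higher and the median was -0.03, and 1 was higher without WT replicate 3, the gene Asns described below. Atf4 had 156, 251 and 169 in Ire1 ko livers, against 320, 305, 276 and 294 in WT livers (-0.67 ± 0.14, adjusted p = 0.0228). The amino acid transporter subunit Slc3a2 fell by 0.65 and the tRNA synthetase Nars by 0.47. All 3 calls were lost on leaving out single arrays, Ire1 ko replicate 3 and WT replicates 2 and 4 for each of them, and for 1 or 2 of them also WT replicates 1 and 3 and Ire1 ko replicates 1 and 2 (0.0513 to 0.154).

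Ire1 ko replicate 2 stood apart for some stress genes, singled out after their values were seen. Ddit3, encoding CHOP, had 14, 117 and 16 in Ire1 ko livers and 16, 18, 11 and 14 in WT livers. Creld2, an ER stress gene, had 69, 275 and 73 in Ire1 ko livers and 238, 313, 515 and 230 in WT livers (-1.46, limma adjusted p = 0.0855). Both genes were thus unlike the rest of their group on that array alone. Asns, a target of ATF4, had 205, 78 and 124 in Ire1 ko livers and 38, 33, 109 and 40 in WT livers (1.38, adjusted p = 0.181), and without WT replicate 3 it was called higher.

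Cholesterol synthesis genes were lower as well, with more spread between animals. Of 19 tested genes of sterol synthesis and SREBP2, the transcription factor of that pathway, 5 fell, against 0.863% of all tested genes called lower. All 19 had a difference below 0 and the median was -0.74. Mvd, which makes isopentenyl diphosphate, had 6, 12 and 12 in Ire1 ko livers, against 75, 51, 15 and 41 in WT livers (-2.04 ± 0.40, limma adjusted p = 0.0168). Sqle, the squalene epoxidase, had 245, 262 and 288 in Ire1 ko livers, against 672, 613, 424 and 546 in WT livers (-1.07). WT replicate 3 was the lowest WT array for both. Lss (-1.25), which closes the sterol ring, the mevalonate kinase Mvk (-1.16) and the farnesyl diphosphate synthase Fdps (-0.74) fell too, while the brightest members not called were Msmo1 (-0.63, adjusted p = 0.168) and Ebp (-0.34). The list averaged -1.11, -0.61 and -0.65 in Ire1 ko livers and 0.32, 0.16, -0.38 and -0.10 in WT livers, relative to the WT mean. The number called was 0 without Ire1 ko replicate 1, 1 without Ire1 ko replicate 3, 2 without WT replicate 1 or 2, 7 without WT replicate 3, and 0 with the 7 arrays fitted alone. Each of the 5 calls was lost without at least 1 array, all 5 of them without Ire1 ko replicate 1 (adjusted p 0.0504 to 0.18 over the calls lost). Set against the WT littermates of the Xbp1 ko in place of their own, the Ire1 ko livers had 12 of 19 members below 0, a median of -0.12 and 4 called lower, and Mvd, Sqle and Mvk stood above 0 (0.34, 0.33 and 0.10). Of 18 tested lipogenesis genes none was called by limma (median -0.19), 4 were lower at an unadjusted p below 0.05, and 1 was called lower without WT replicate 4. Fasn, the fatty acid synthase, had 284, 318 and 170 in Ire1 ko livers and 567, 345, 339 and 426 in WT livers (-0.72, adjusted p = 0.228), and Scd1 differed by -0.33.

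In the growth hormone and STAT5 list, Bcl6 was called higher, and Cish and Onecut1 were called lower. Bcl6, a transcriptional repressor that growth hormone lowers in liver, had 109, 85 and 123 in Ire1 ko livers, against 9, 12, 20 and 11 in WT livers. The 8.13-fold higher mean was the largest rise called (3.07 ± 0.31, limma adjusted p = 5.05e-05). Cish, a growth hormone and STAT5 target, had 19, 23 and 11 in Ire1 ko livers, against 50, 45, 71 and 45 in WT livers (-1.62 ± 0.22, adjusted p = 0.000711). Onecut1, encoding the hepatocyte factor HNF6, had 23, 36 and 22 in Ire1 ko livers, against 73, 57, 125 and 100 in WT livers (-1.69). These were 3 of 21 tested genes of the list, against 0.943% of all tested genes called in either direction, and the median was -0.11. Without WT replicate 4, 2 genes of the list were called higher. None of 14 male-biased and 16 female-biased liver genes was called by limma (3 male-biased lower, and 5 female-biased higher and 1 lower, at an unadjusted p below 0.05), while 1 female-biased gene was called higher without WT replicate 3 or 4 or Ire1 ko replicate 3 and 1 lower without WT replicate 4. The brightest members of the growth hormone list not called were Mup3 (-0.07) and Igfbp4 (0.04).

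Among the other higher genes, Rgs16, a regulator of G protein signalling in the clock list, had 27, 46 and 40 in Ire1 ko livers, against 11, 8, 14 and 13 in WT livers (1.71 ± 0.24, limma adjusted p = 0.00121). It was the only one of 21 tested clock genes called, where 0.943% of all tested genes were called in either direction. Rhbg, an ammonia transporter of hepatocytes around the central vein, had 84, 165 and 66 in Ire1 ko livers, against 43, 30, 36 and 32 in WT livers (1.48). The lysosomal protease Ctsl had 2052, 1763 and 2242 in Ire1 ko livers, against 1501, 1525, 1507 and 1522 in WT livers (0.41). Cisd3, a mitochondrial iron-sulfur protein, had 522, 482 and 470 in Ire1 ko livers, against 384, 336, 385 and 329 in WT livers (0.46). The Cisd3 call was lost on leaving out any of the 7 arrays (adjusted p 0.0582 to 0.16), and the Rhbg call without WT replicate 2, 3 or 4 or Ire1 ko replicate 2 (0.0535 to 0.0985). Cav1, of caveolae, had 10, 12 and 12 in Ire1 ko livers, against 7, 6, 7 and 5 in WT livers (0.87), at the dim end of the scale. Of the 12 higher genes, 7 had both group means below 16.

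Among lower genes outside the lists, Serpina4-ps1, a serpin pseudogene, had the lowest value called, with 63, 102 and 167 in Ire1 ko livers, against 387, 364, 772 and 514 in WT livers (-2.25 ± 0.46, limma adjusted p = 0.0258). The call was lost without WT replicate 1, 3 or 4 or Ire1 ko replicate 1 or 2 (0.0565 to 0.144). Ikbke, an innate immune kinase, had 24, 14 and 19 in Ire1 ko livers, against 84, 51, 50 and 45 in WT livers (-1.59). Chid1, a chitinase-like protein, had 23, 18 and 18 in Ire1 ko livers, against 49, 53, 61 and 55 in WT livers (-1.48). Within the lists, Rpl10 was the 1 called gene of 31 tested ribosomal protein genes (-0.39), where 0.863% of all tested genes were called lower.

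Published targets of IRE1-dependent decay were not called in untreated Ire1 ko livers. Of 14 tested decay substrates and 12 tested carboxylesterases, the second list chosen by the study on these samples, none was called in either direction. The medians were 0.03 and 0.02. Only 0.943% of all tested genes were called, so a count of 0 in lists this short does not set them apart. At an unadjusted p below 0.05, 1 substrate was higher and 2 carboxylesterases were lower, and 1 substrate was called higher without WT replicate 4. Bloc1s1, a widely used marker substrate, had 208, 199 and 168 in Ire1 ko livers and 151, 145, 161 and 148 in WT livers, separated but short of the threshold (0.34 ± 0.18, limma adjusted p = 0.605). In Xbp1 ko livers, where IRE1 is known to be hyperactive, the same gene averaged 22.2 ± 2.99, against 147 ± 16.1 in their WT littermates (SD, 4 arrays each; -2.73, adjusted p = 4.1e-05). The test of Ire1 loss minus Xbp1 loss gave 3.07 for Bloc1s1 (adjusted p = 9.4e-09), in a comparison where 92 of 15414 genes passed (0.597%, with 0.519% above 0 and 0.0779% below). In Xbp1 ko livers 6 of the 14 substrates were lower, against 2.07% of 14008 tested genes, and 5 differed between the 2 losses. Hgsnat, a lysosomal enzyme, had 154, 145 and 103 in Ire1 ko livers and 154, 99, 125 and 153 in WT livers, a difference of 0.01 there and -2.66 in Xbp1 ko livers. The substrate with the highest value, Rtn4, which shapes ER tubules, had 200, 157 and 97 in Ire1 ko livers and 43, 41, 78 and 120 in WT livers, with overlapping groups (1.19, adjusted p = 0.138). Tapbp (0.24), Cyp1a2 (0.05) and Cyp2e1 (0.06) also stayed short of the threshold in Ire1 ko livers, and each was lower in Xbp1 ko livers (-1.25, -1.39 and -0.32).

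The carboxylesterases, liver hydrolases whose near-identical copies may share probes, gave the same contrast. Ces1g had 228, 143 and 37 in Ire1 ko livers and 98, 21, 126 and 32 in WT livers, a wide spread in both groups (0.99, limma adjusted p = 0.748), and averaged 16.2 ± 4.27 (SD) in Xbp1 ko livers, against 285 ± 36.2 in their WT littermates. Its difference between the 2 losses was 5.15 (adjusted p = 0.00037). Ces1d, Ces1e, Ces1f and Ces1c differed by 0.56, -0.62, 0.04 and 0.26 in Ire1 ko livers and by -2.89, -3.91, -2.46 and -2.19 in Xbp1 ko livers. For each of these 4 the test of the difference between the losses passed, at 3.45, 3.29, 2.50 and 2.45. After tunicamycin, 5 substrates and 6 carboxylesterases were higher in Ire1 ko livers than in WT livers, against 9.68% of tested genes. The carboxylesterase list was chosen by the study on these samples, so its values here are no independent support. Bloc1s1 then averaged 116 ± 13.7 in Ire1 ko livers and 17.5 ± 4.65 in WT livers, and Ces1d 393 ± 128 in Ire1 ko livers and 18.5 ± 9.75 in WT livers (SD, 4 arrays each).

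**Figure D4:**
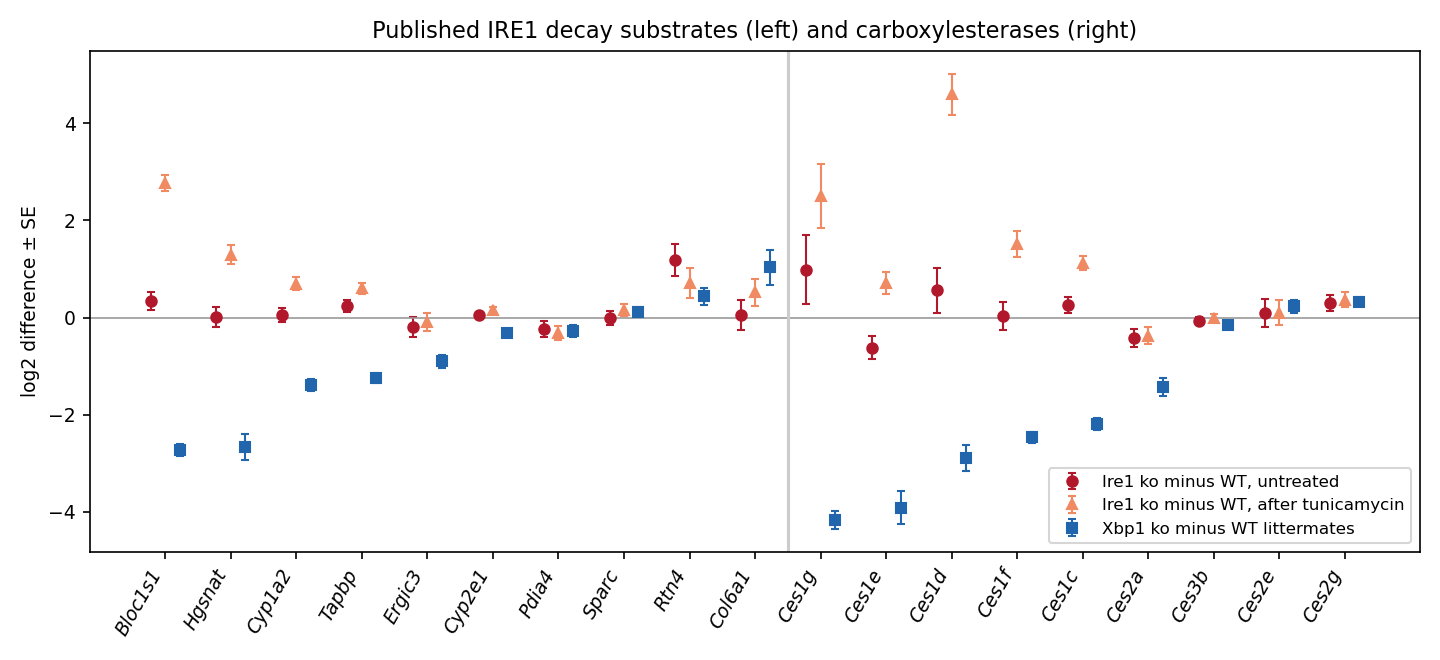
Log2 difference with its standard error for published decay substrates (left) and carboxylesterases (right) in 3 comparisons: Ire1 ko minus WT untreated (circles), Ire1 ko minus WT after tunicamycin (triangles) and Xbp1 ko minus WT littermates (squares). Untreated Ire1 ko values are 0.34 for Bloc1s1 and 0.01 for Hgsnat, where the Xbp1 ko values are -2.73 and -2.66, and the untreated values farthest from 0 are Rtn4 (1.19) and Ces1g (0.99).

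Genes that fell without ER stress were mostly lower under it too. Of the 131 lower genes, 106 (80.9%) were also lower in Ire1 ko livers than in WT livers after tunicamycin, which is 8.22% of the 1290 genes lower there. The share of all tested genes lower after tunicamycin was 8.5%. Both contrasts came from 1 fit with 1 estimate of spread per gene, so the 2 sets of calls are not independent. Only 1 gene was lower untreated and higher after tunicamycin, the zinc finger gene Zfp809 (-0.66 and 0.59), named after its values were seen, whose untreated call was lost without any array but Ire1 ko replicate 2 (limma adjusted p 0.0505 to 0.15). The median over the 131 genes was -0.80 untreated and -1.29 after tunicamycin. The untreated difference minus that after tunicamycin passed for 1142 genes (7.53% of tested genes), and among the 131 it was above 0, that is less negative untreated, for 64 (3.95% of tested genes) and below 0 for 17 (3.58% of tested genes). Sec61b averaged 155 ± 18.01 in Ire1 ko livers and 463 ± 65.6 in WT livers untreated, and 105 ± 14.4 in Ire1 ko livers and 829 ± 49.2 in WT livers after tunicamycin (SD). Tmed3 averaged 24.3 ± 7.02 in Ire1 ko livers and 84.5 ± 19.9 in WT livers untreated, and 46.2 ± 10.3 in Ire1 ko livers and 539 ± 39.1 in WT livers after tunicamycin. For both genes the gap was wider after tunicamycin, by 1.42 and 1.76 on the log2 scale. Xbp1 went the other way, at -0.29 untreated and 0.82 after tunicamycin. Of the 12 higher genes, 8 were also higher after tunicamycin, where 9.68% of tested genes were called higher.

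Some genes at the bottom of the scale without the drug were high in WT livers after it. Far1, which makes fatty alcohols, averaged 5 in Ire1 ko livers and 5.5 in WT livers untreated, and 6 ± 0.816 in Ire1 ko livers and 283 ± 160.4 in WT livers after tunicamycin. Bhlha15, encoding MIST1, a transcription factor of secretory cells, averaged 5 in both groups untreated, and 5.75 ± 0.957 in Ire1 ko livers and 171 ± 17.2 in WT livers after tunicamycin. Both genes lay at the bottom of the scale in Ire1 ko livers in either state, so the size of their differences is limited by that bottom. On the other side, Ces1d (-4.04), Sgk1 (-2.75) and Bloc1s1 (-2.43) were higher in Ire1 ko than in WT after tunicamycin and were not called without it.

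Many of these genes were lower in Xbp1 ko livers too. Of 130 lower genes tested in both comparisons, 62 (47.7%) were also lower in Xbp1 ko livers than in their own WT littermates, which is 21.4% of the 290 genes lower there. All genes that passed in Xbp1 ko livers were 2.71% of those tested, 2.07% lower and 0.642% higher. The medians over these 130 genes were -0.80 in Ire1 ko livers and -0.60 in Xbp1 ko livers, and 117 had the same sign. Serpina4-ps1 was the 1 lower gene called higher in Xbp1 ko livers (0.72), and of 10 higher genes tested in both comparisons, 2 were also higher there, Cav1 and Cisd3. The test of Ire1 loss minus Xbp1 loss passed for 5 of the genes that fell, above 0 for the ER lectin Mlec (1.06) and below 0 for Serpina4-ps1, Onecut1, Slc3a2 (-1.04) and the homeobox gene Hopx (-0.71). Mlec, Slc3a2 and Hopx were named there after their values were seen, and the untreated call of Hopx was lost without WT replicate 1 or 3 or Ire1 ko replicate 2 or 3 (limma adjusted p 0.0535 to 0.0766). Sec61b averaged 185 ± 24.7 in Xbp1 ko livers and 469 ± 7.27 in WT littermates, and Tmed3 18.8 ± 5.5 in Xbp1 ko livers and 68.5 ± 23.4 in WT littermates (SD). Erp44, an ER thioredoxin, was an exception. It had 346, 374 and 309 in Ire1 ko livers and 381, 432, 488 and 497 in WT livers (-0.39, limma adjusted p = 0.0855), against -1.81 in Xbp1 ko livers, and the difference of 1.42 passed (adjusted p = 1.5e-05). Bcl6 averaged 15.5 ± 4.04 in Xbp1 ko livers and 30.2 ± 18.01 in WT littermates, and the difference between the losses was 3.89. Onecut1 averaged 275 ± 25.0 in Xbp1 ko livers and 193 ± 90.8 in WT littermates (difference between the losses -2.33), and Serpina4-ps1 averaged 563 ± 83.7 in Xbp1 ko livers and 342 ± 58.7 in WT littermates (-2.97). Cav1 rose by 3.50 in Xbp1 ko livers and by 0.87 in Ire1 ko livers (-2.63). Tmem238, a small membrane protein, differed by 0.02 in Ire1 ko livers and by -3.66 in Xbp1 ko livers (3.69). WT levels also differed between the experiments, as for Onecut1 with 88.8 in WT littermates of the Ire1 ko and 193 in those of the Xbp1 ko.

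**Figure D5:**
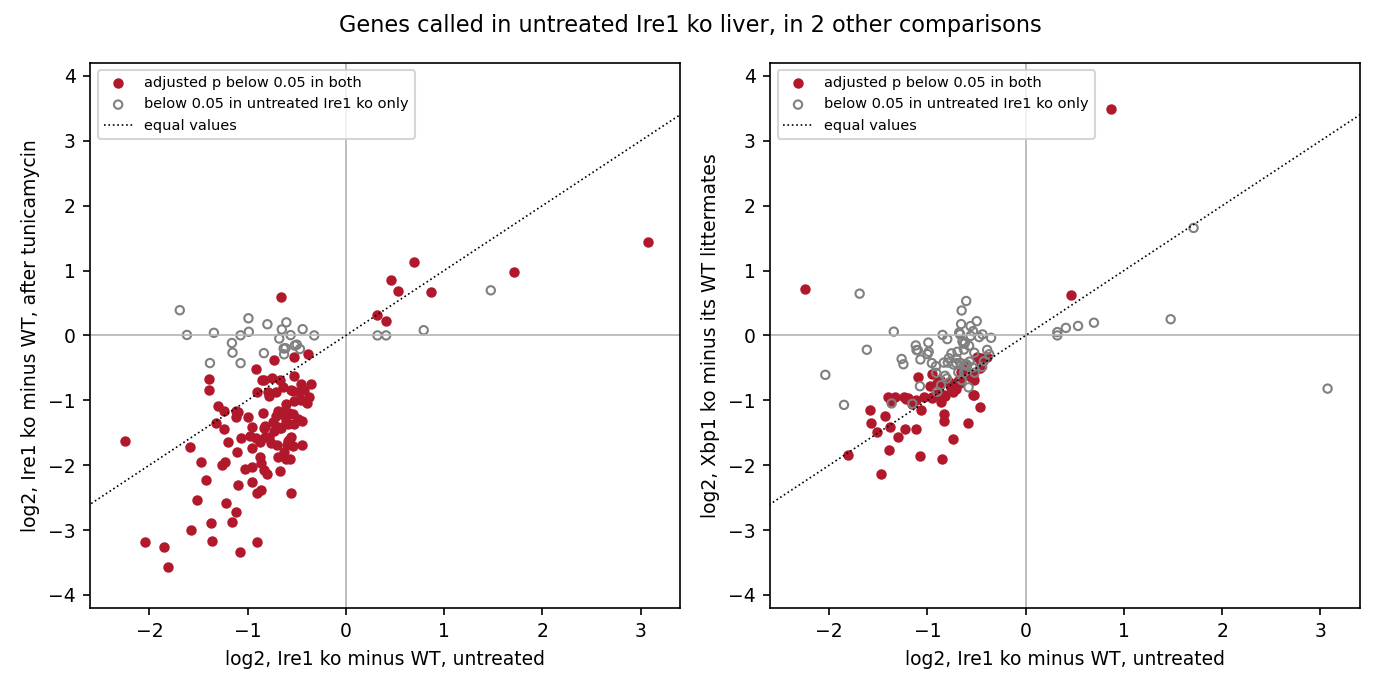
Genes called in untreated Ire1 ko liver (x axis, log2 Ire1 ko minus WT) against the same contrast after tunicamycin (left) and against Xbp1 ko minus its WT littermates (right). Filled points passed in both comparisons, open points in untreated Ire1 ko only, and the dotted line marks equal values. On the left, 106 of the 131 lower genes are also called lower, most of them below the line. On the right, 62 of 130 are, and Bcl6 is the open point farthest right.

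Most lists of liver functions outside the ER held no called gene. Over all tested genes 0.943% were called, so lists of these sizes would often hold none. The counts of 0 thus do not set these lists apart. None was called among 37 tested cytochrome P450 genes, 33 conjugating enzymes, 32 genes of bile acid synthesis and transport, 23 of fatty acid oxidation and ketogenesis, 24 of the urea cycle and amino acid catabolism, 18 of gluconeogenesis and glucose metabolism or 37 of the respiratory chain. Single genes were called higher in some of them on leaving out WT replicate 4 (P450 genes and fatty acid oxidation) or Ire1 ko replicate 3 (P450 genes). The medians of these lists lay between -0.03 and 0.20 on the log2 scale. At an unadjusted p below 0.05 these lists held 0 to 5 genes higher and 0 or 1 lower. The limma test at the adjusted threshold likewise called no gene of the proteasome (29 tested genes, median -0.01) or of the cell cycle list (20 tested genes, median -0.11).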

How the data were processed

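Total liver RNA was hybridised to a mouse Affymetrix array with perfect-match probes. Per the submitters' processing notes the authors used RMA and the affy package, whose versions are not given in the sources used here. The values as deposited were linear probe set intensities in whole numbers. They were put on the log2 scale here. Whether all 31 arrays were normalised together was not stated. The number of arrays limits precision.

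Of 45037 probe sets, 28898 had 1 gene symbol in GEO's platform annotation, 551 had several and 15588 were not listed there, which left 17097 genes. For 7180 genes with several probe sets, the one with the highest mean over all arrays was used. Genes above an array's 30th percentile on at least 3 arrays were tested with limma 3.58.1 in R 4.3.3 (lmFit and eBayes with an intensity trend, Benjamini-Hochberg adjustment, threshold 0.05) on the 15 arrays of the Ire1 experiment, which share 1 estimate of spread per gene. The untreated contrast, the tunicamycin contrast and their difference came from that fit. The Xbp1 ko contrast used its own 8 arrays, and Ire1 loss minus Xbp1 loss used the 15 untreated arrays of both experiments. p-values measure the spread between arrays that the labels call biological replicates. The test was run on simulated data first. Gene lists (60 lists, 1106 measured genes), members and tests were chosen with earlier results of these data known. Named were Ern1, Xbp1, up to 15 separated called genes on each side with a group mean of at least 16, up to 6 called and 2 bright uncalled members of each list described, and up to 6 genes on each side of the 2 tests of differences. Short lists could be given in full. Most genes outside this rule are marked in the text, but some, such as Sil1 and Saa2, are not. Alternatives were other filters, scalings, offsets, probe set summaries, arrays and controls, and a replicate block.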

Additional observations from a re-analysis of the deposited data

Results flagged for a closer look

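For 10 of the 146 named genes, 1 of the 4 WT arrays stood far from the other WT arrays by its gap over the range, which chance gives in about 1 in 20 groups. The 3 Ire1 ko arrays were too few for this check. The distant WT intensity was 410 for Spcs2, 332 for Dpm1, 1195 for Hspa5, 312 for Ero1b, 388 for Ufc1 and 1314 for Sar1b. It was 109 for Asns, 84 for Ikbke, 138 for Mlec and, as the one low array, 296 for Dnajb11.

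For 81 of the named genes the untreated difference, Ire1 ko minus WT, differed from that after tunicamycin by the limma test of that difference (adjusted p below 0.05). Over all tested genes 7.53% passed this test, and some named genes were chosen because they passed it. The untreated value minus the tunicamycin value was above 0 for 63 and below 0 for 18, against 3.95% and 3.58% of tested genes. In the translocon it was 1.42 for Sec61b, 1.02 for Sec61a1, 0.79 for Tram1, 1.53 for Ssr1, 1.18 for Ssr2, 0.87 for Ssr3 and 0.58 for Ssr4. All 7 were further below WT after the drug. In signal recognition and peptidase it was 0.45 for Spcs2, 0.57 for Spcs3, 0.7 for Spcs1, 0.84 for Srpr, 1.01 for Srp9, 0.84 for Srp14, 1.16 for Srp54a, 1.34 for Srp54c and 0.55 for Srp72. In the oligosaccharyltransferase it was 0.8 for Ostc, 0.52 for Ddost, 1.11 for Stt3a, 0.78 for Rpn1, 0.8 for Dad1 and 0.58 for Ost4.

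Among glycan and sugar nucleotide genes the difference was 0.74 for Alg2, 1.42 for Dhdds, 1.41 for Gmppb, 1.72 for Gmppa, 2.26 for Pgm3, 0.52 for Gnpnat1 and 1.52 for Nans, and below 0 for Slc35b1 (-0.56) and Slc35d1 (-0.92). Among folding genes it was 1.81 for Hspa13, 0.49 for Dnajc3, 0.46 for P4hb, 1.24 for Txndc5, 0.78 for Mogs and 0.58 for Lman1, and below 0 for Hyou1 (-0.96) and Manf (-0.89). Those 2 chaperone genes were thus further below WT without the drug. Among genes of degradation and of UFM1 it was 0.48 for Selenos, 0.74 for Herpud1, 0.98 for Ufm1, 0.9 for Cdk5rap3 and 0.41 for Ufc1.

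In vesicle coats it was 1.36 for Sec23b, 1.21 for Sec24d, 1.3 for Preb, 1.07 for Tfg, 0.76 for Cope, 0.69 for Copa and 0.94 for Arf4. In cargo receptors and the Golgi it was 1.76 for Tmed3, 1.3 for Bet1, 1.0 for Surf4, 0.76 for Lman2, 1.09 for Sec22b, 0.77 for Tmed2, 1.28 for Kdelr2, 0.77 for Uso1 and 0.74 for Gorasp2. Among sensors and their targets it was 1.52 for Creb3l2, 0.68 for Creb3, 2.43 for Eif2ak3, -1.12 for Xbp1 and -0.74 for Slc3a2.

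The decay substrates and carboxylesterases that passed were all below 0, at -2.43 for Bloc1s1, -1.28 for Hgsnat, -4.04 for Ces1d, -1.33 for Ces1e, -1.48 for Ces1f and -0.86 for Ces1c. Of the remaining genes, Bcl6 (1.63), Tmem39a (2.28), Far1 (5.27) and Bhlha15 (4.9) were above 0, the last 2 limited by the bottom of the scale in Ire1 ko livers. Cish (-1.62), Onecut1 (-2.08), Zfp809 (-1.24), Sgk1 (-2.75), Hopx (-0.57) and Tmem238 (-2.04) were below 0. Cish averaged 7.25 in both groups after tunicamycin, at the bottom of the scale.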

How the results depend on the processing

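The 143 calls in untreated livers were 78 with the 7 untreated arrays alone, 1221 with the WT littermates of the Xbp1 ko as controls, and 95 to 147 on leaving out 1 array. The 131 lower calls were 55, 566 and 81 to 123 in these settings. The 12 higher calls were 23, 655 and 7 to 24, and 20 after quantile normalization, 25 with all 31 arrays in one fit and 30 with a common median. With a replicate block, for which the replicate numbers did not pair the samples (correlations of same-numbered deviations -0.0061, -0.1895 and -0.1848 over 5600 genes), 116 genes were called, 10 higher and 106 lower. The 380 Xbp1 ko calls became 197 with a replicate block and 237 to 373 on leaving out 1 array, the lowest without WT littermate replicate 1. The other counts (after tunicamycin, and of both differences) stayed within 1.5 times under filter, quantile normalization, block and leave-one-out. With the Xbp1 ko littermates as controls, 12 of the 143 genes changed sign, of the named genes Mvd (0.34), Sqle (0.33), Mvk (0.10) and Hopx (0.13), and no gene did so under the other alternatives. Among named genes, leaving out 1 array gave 864 results on the main side of the threshold, 151 called genes no longer called and 7 newly called, and the other alternatives 1408, 173 and 20. The array signal was dim, with both group means below 16, for 7 of the 12 higher genes. The cause of these shifts was not tested.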
